A study of Mus musculus with 6 samples.

Results

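The genes that make, break down and regulate the polyamines were examined in B16 mouse melanoma cells with and without the IFN-γ receptor subunit IFNγR1. The set held 10 genes, taken by symbol through the Ensembl identifiers of GENCODE release M21, out of 55335 gene identifiers in the count tables. They were Odc1, Amd1, Srm and Sms (synthesis), Azin1 and Azin2 (antizyme inhibitors), Oaz1 and Oaz2 (antizymes), and Sat1 and Smox (catabolism). All 10 passed the filter on low counts. Of these genes, Amd1 fell and Azin2 rose in IFNγR1KO cells, both by more than a factor of 2, and the other 8 did not pass the test.

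Polyamines (putrescine, spermidine and spermine) are small cations that bind nucleic acids and are needed for cell growth. Ornithine decarboxylase makes putrescine, and aminopropyl groups donated by decarboxylated S-adenosylmethionine (AdoMet) extend it to spermidine and then spermine. Antizymes bind ornithine decarboxylase and deliver it to the proteasome, antizyme inhibitors bind the antizymes in its place, and acetylation and oxidation turn the longer polyamines back into shorter ones. Melanoma cells, like other dividing cells, make and take up polyamines.

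RNA-seq was performed on 3 scrambled control cultures, labelled as wild type, and 3 IFNγR1KO cultures of B16 cells, named B16-BL6 in the methods of the study. Both groups were transduced with lentiCRISPR v2 and selected with puromycin; scrambled control cells received a guide against GFP and IFNγR1KO cells received guides against Ifngr1. According to those methods the knockout lines are single clones, chosen by their PD-L1 response to IFN-γ, and no agent is named for either group in the RNA-seq experiment. The 3 cultures of a group were plated in parallel, and it is not stated whether the IFNγR1KO cultures, numbered 10 to 12, come from 1 clone, so that p-values measure only the spread between these cultures. Differences between the groups cannot be told apart from differences between clones.

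The libraries held between 9402640 and 10579788 counts on genes in scrambled control and between 6698956 and 7409479 in IFNγR1KO cells. Levels are given as CPM, the counts of a gene scaled to a common library total with the TMM factors of edgeR, on which a single count was worth 0.0966 to 0.109 CPM in scrambled control and 0.135 to 0.142 CPM in IFNγR1KO libraries. All 7 melanocyte markers examined were present, with a summed level of 31716 to 34659 CPM in scrambled control and 27898 to 32830 CPM in IFNγR1KO cells, and the 5 immune markers summed to no more than 0.109 CPM in any library. The 4 fibroblast markers were low but differed between the groups, with sums of 4.38 to 5.97 CPM in scrambled control and 6.25 to 8.72 CPM in IFNγR1KO cells. Within them Col1a1 had 1.74, 1.19 and 1.06 CPM in scrambled control and 3.84, 5.15 and 6.61 CPM in IFNγR1KO libraries, Pdgfra was lower in every IFNγR1KO library, and Col3a1 and Dcn were at 3 counts or fewer in every library. The part of the fibroblast markers in the results was not tested. Ifngr1, the targeted gene, had 16.7, 14.3 and 16.6 CPM in scrambled control and 11.4, 11.5 and 11.5 CPM in IFNγR1KO libraries. Its log2 fold change was -0.47 (SE 0.16, adjusted p = 0.0729, edgeR quasi-likelihood test with Benjamini-Hochberg adjustment), and the counts do not show whether the remaining transcript encodes a receptor. The study assessed receptor loss by other means. It checked its clones for IFNγR1 by flow cytometry and reported that IFN-γ did not raise Irf1 or PD-L1 in IFNγR1KO cells.

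Of the 10 polyamine genes, 2 had an adjusted p under 0.05, against 15.3% of the 13642 genes tested. That background depends on the libraries: the 2093 genes called became 1087 without scrambled control replicate 2, 1095 and 1028 without IFNγR1KO replicates 10 and 11, and 2824 without replicate 12. They were 1 higher gene, where 7.73% of all tested genes were called higher, and 1 lower gene, where 7.62% were called lower. Both also had an absolute log2 fold change above 1, the study's threshold for a differentially expressed gene (DEG). The study set it on values of DESeq2, and here it was set on those of edgeR. By edgeR 5.2% of tested genes passed it, 3.25% as higher and 1.96% as lower. The CPM of 5 of the 10 genes did not overlap between the groups (Amd1, Azin1, Azin2, Oaz2 and Smox), against 32.6% of tested genes. The median log2 fold change of the 10 genes was -0.19, and that of all tested genes was -0.0015. The median absolute log2 fold change was 0.29 for the polyamine genes and 0.25 for all tested genes. In bulk RNA, fewer cells that express a gene and less of its RNA per cell cannot be told apart.

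**Figure D1:**
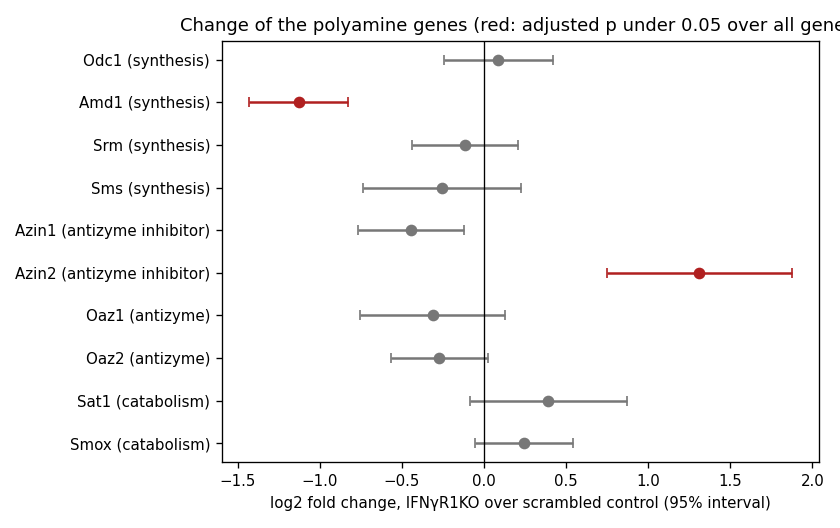
Log2 fold change (x axis) of each polyamine gene (y axis, with its role), IFNγR1KO over scrambled control, from edgeR; points are estimates, bars are 95% intervals, and red marks an adjusted p under 0.05. Amd1 at -1.13 and Azin2 at 1.31 are the 2 red points, and of the grey intervals only that of Azin1, -0.77 to -0.12, leaves out 0.

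Among the synthesis genes, Odc1 encodes ornithine decarboxylase, the first enzyme of the pathway. Odc1 (ENSMUSG00000011179.8, chr12:17544794-17551505 of GRCm38, plus strand) had 484, 433 and 434 CPM in scrambled control and 507, 532 and 396 CPM in IFNγR1KO libraries. Replicate 12 was the lowest of all 6 libraries, replicates 10 and 11 were the highest, and the groups overlapped. The log2 fold change was 0.09 (SE 0.15, 95% interval -0.25 to 0.42, adjusted p = 0.763, edgeR quasi-likelihood test with Benjamini-Hochberg adjustment). It was 0.20 without replicate 12 (adjusted p = 0.411) and 0.02 without replicate 11 (adjusted p = 0.974). Of the stretches of 100 bases in the longest Odc1 transcript, 19.6% also occur in other annotated genes. Reads that align equally well to several places were not counted, so the level of Odc1 may be understated.

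Amd1 encodes AdoMet decarboxylase, the enzyme that provides the aminopropyl donor. It lies on the minus strand at chr10:40287458-40302186 of GRCm38 (ENSMUSG00000075232.6). The mouse genome holds copies of it, among them Amd2, whose annotated coding sequence has the same length of 1002 bases and matches that of Amd1 at 99.9% of positions. The only difference between these coding sequences does not by itself assign a stretch of 100 bases to Amd1. All such stretches that start in the Amd1 coding part also occur in an annotated copy. The sequence around the difference is shown. It covers coding positions 766 to 825, counted from 1 at the start codon, in the GENCODE M21 transcripts of GRCm38, with the differing base in capitals.
Amd1: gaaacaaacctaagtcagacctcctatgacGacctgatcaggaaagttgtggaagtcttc
Amd2: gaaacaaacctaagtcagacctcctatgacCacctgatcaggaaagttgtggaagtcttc

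Amd1 had 766, 724 and 936 counts in scrambled control and 281, 263 and 261 counts in IFNγR1KO libraries. These were 83.2, 72.0 and 90.4 CPM in scrambled control and 39.9, 35.6 and 36.7 CPM in IFNγR1KO cells. Every IFNγR1KO library was thus far below the lowest scrambled control library, and the IFNγR1KO libraries lay close together. Scrambled control cells averaged 81.9 ± 9.27 CPM and IFNγR1KO cells 37.4 ± 2.24 CPM (SD, n = 3 each). Amd1 fell by 1.13 on the log2 scale (SE 0.14, 95% interval -1.43 to -0.83, adjusted p = 0.000289, edgeR quasi-likelihood test with Benjamini-Hochberg adjustment), a level 2.19-fold lower. It passed whichever of the 6 libraries was left out, with log2 fold changes between -1.22 and -1.05. A two-sided exact permutation test over the libraries gave p = 0.1, the smallest that 3 against 3 allows.

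The level of Amd1 rests on part of its transcript. Of all stretches of 100 bases in its longest transcript, 76.4% also occur in an annotated copy (Amd2, Amd-ps1, Amd-ps3 or Amd-ps4), a share that was 100% for stretches starting in the coding part, 61.3% in the 5′ UTR and 65.9% in the 3′ UTR. Reads that align equally well to several places were not counted for a gene, so the level of Amd1 is understated by an unknown amount. Amd2 itself had 10, 6 and 17 counts in scrambled control and 1, 4 and 3 counts in IFNγR1KO libraries, between 0.356% and 1.82% of the counts of Amd1. With the counts of the copies added to Amd1, the log2 fold change was -1.14 (adjusted p = 0.00025, edgeR quasi-likelihood test with Benjamini-Hochberg adjustment). This sum cannot bring back the reads that were counted for no gene, so the part of those reads in the difference was not tested.

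Srm encodes spermidine synthase. Srm (ENSMUSG00000006442.10, chr4:148591503-148594993, plus strand) had 116, 161 and 142 CPM in scrambled control and 124, 123 and 139 CPM in IFNγR1KO libraries. The IFNγR1KO libraries all lay inside the range of the scrambled control libraries. Its log2 fold change of -0.12 did not pass (SE 0.15, 95% interval -0.44 to 0.21, adjusted p = 0.66 by edgeR).

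Sms, on the X chromosome, encodes spermine synthase, which adds the last aminopropyl group. Sms (ENSMUSG00000071708.11, chrX:157443855-157492287, minus strand) had 44.2, 33.4 and 27.2 CPM in scrambled control and 35.7, 31.97 and 20.0 CPM in IFNγR1KO libraries. The groups overlapped, and the libraries of each group lay far apart. With a log2 fold change of -0.26, Sms did not pass (SE 0.22, 95% interval -0.74 to 0.23, adjusted p = 0.502 by edgeR). Of the stretches of 100 bases in its longest transcript, 27.7% also occur in other annotated genes, the pseudogene Sms-ps among them.

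**Figure D2:**
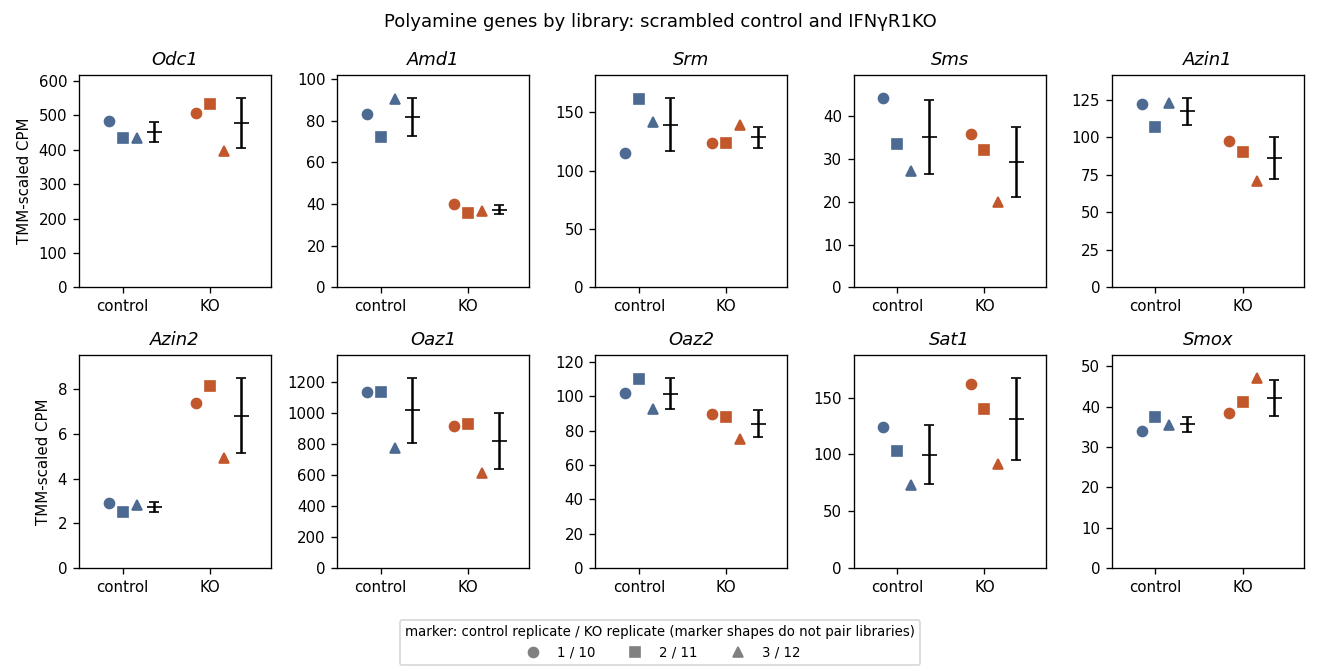
TMM-scaled CPM (y axis, from 0) of each polyamine gene in the 3 scrambled control (blue) and 3 IFNγR1KO (orange) libraries, with the mean and SD of each group in black; marker shapes name replicates and do not pair libraries. Amd1 sits at 72.0 CPM or above in scrambled control and at 39.9 CPM or below in IFNγR1KO, Azin2 sits at 2.93 CPM or below in scrambled control and at 4.92 CPM or above in IFNγR1KO, and the other genes differ less.

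The regulators of ornithine decarboxylase follow. Oaz1 encodes the main antizyme and Oaz2 a second one, and both are translated only when the ribosome shifts its reading frame at a fixed site, a step that polyamines favour. The sites are shown because the 2 genes share them and because they lie within the counted exons. Each line gives the plus strand of GRCm38, read from a GENCODE M21 transcript that spans the site, at chr10:80828279-80828308 for Oaz1 and chr9:65686256-65686285 for Oaz2. Capitals mark the 4 bases that the annotated coding exons leave out.
Oaz1: gcctcggtggtgcTCCTgatgtccctcacc
Oaz2: gcctctgtggtgcTCCTgatgcccctcacc

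Oaz1 (ENSMUSG00000035242.15, chr10:80826656-80829290, plus strand) had 1134, 1136 and 775 CPM in scrambled control and 915, 926 and 611 CPM in IFNγR1KO libraries. Scrambled control replicate 3 lay below IFNγR1KO replicates 10 and 11, so the groups overlapped. Oaz1 had a log2 fold change of -0.31 (SE 0.20, 95% interval -0.75 to 0.13, adjusted p = 0.348 by edgeR). The pseudogene Oaz1-ps held counts worth 3.04% to 3.87% of those of Oaz1, and 11.2% of the stretches of 100 bases in the longest Oaz1 transcript also occur in it.

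Oaz2 (ENSMUSG00000040652.16, chr9:65668001-65690300, plus strand) had 102, 110 and 92.5 CPM in scrambled control and 89.5, 87.8 and 75.1 CPM in IFNγR1KO libraries. Every IFNγR1KO library lay below every scrambled control library, by a narrow margin. The log2 fold change was -0.27 (SE 0.14, 95% interval -0.57 to 0.02, adjusted p = 0.21 by edgeR), and the two-sided exact permutation test gave p = 0.1, its smallest value.

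Azin1 encodes an inactive relative of ornithine decarboxylase that binds antizymes. Azin1 (ENSMUSG00000037458.15, chr15:38487427-38519266, minus strand) had 122, 106 and 123 CPM in scrambled control and 97.6, 90.0 and 70.6 CPM in IFNγR1KO libraries. The groups did not overlap. The log2 fold change was -0.44 (SE 0.15, 95% interval -0.77 to -0.12), with an adjusted p of 0.0635 by edgeR's quasi-likelihood test, above the threshold. It passed with DESeq2's Wald test (log2 fold change -0.46, adjusted p = 0.0396) and in edgeR without a filter on low counts (log2 fold change -0.48, adjusted p = 0.0341), and in none of the 6 fits that left out a library, where the adjusted p ran from 0.0775 to 0.172. An antisense gene, Gm49077, covers 5.72% of its exonic bases, and the strand setting of the counting is not given in the sources used here.

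Azin2 encodes the second antizyme inhibitor, known from brain and testis. Azin2 (ENSMUSG00000028789.16, chr4:128930233-128962442, minus strand) had 27, 25 and 29 counts in scrambled control and 52, 60 and 35 counts in IFNγR1KO libraries, although the IFNγR1KO libraries held fewer counts in all. These were 2.93, 2.49 and 2.80 CPM in scrambled control and 7.39, 8.13 and 4.92 CPM in IFNγR1KO cells. The groups did not overlap, the scrambled control libraries lay close together, and IFNγR1KO replicate 12 was well below the other two of its group. Scrambled control cells averaged 2.74 ± 0.228 CPM and IFNγR1KO cells 6.81 ± 1.68 CPM (SD, n = 3 each). Azin2 rose by 1.31 on the log2 scale (SE 0.26, 95% interval 0.75 to 1.88, adjusted p = 0.00527, edgeR quasi-likelihood test with Benjamini-Hochberg adjustment), a level 2.48-fold higher. It passed whichever of the 6 libraries was left out, with log2 fold changes from 1.18 to 1.496 and adjusted p from 0.00038 to 0.037. No stretch of 100 bases in its longest transcript occurs in another annotated gene.

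Sat1 encodes spermidine/spermine acetyltransferase, which marks polyamines for export and oxidation. Sat1 (ENSMUSG00000025283.15, chrX:155213132-155216449, minus strand) had 124, 103 and 72.9 CPM in scrambled control and 162, 140 and 91.4 CPM in IFNγR1KO libraries. Replicates 10 and 11 were the highest of all libraries and replicate 12 lay inside the scrambled control range. The log2 fold change was 0.39 (SE 0.22, 95% interval -0.09 to 0.87, adjusted p = 0.272 by edgeR). Without replicate 12 it was 0.59 and passed the test (adjusted p = 0.0192), and in the other fits that left out a library it was between 0.21 and 0.58 and did not pass.

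Smox encodes spermine oxidase, which returns spermine to spermidine. Smox (ENSMUSG00000027333.18, chr2:131491496-131525922, plus strand) had 33.9, 37.5 and 35.6 CPM in scrambled control and 38.4, 41.2 and 47.1 CPM in IFNγR1KO libraries. The IFNγR1KO libraries lay just above the scrambled control libraries without overlap. Smox had a log2 fold change of 0.24 (SE 0.14, 95% interval -0.06 to 0.54, adjusted p = 0.276 by edgeR).

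IFNγR1KO replicate 12 had the lowest level of its group for 7 of the 10 polyamine genes and the highest for 2, Srm and Smox. Over all tested genes it was the lowest of its group for 42.0% and the highest for 41.1%. It was also the library with the fewest counts on genes, 6698956. Scrambled control replicate 3 was the lowest of its group for 4 of the 10 genes, Sms, Oaz1, Oaz2 and Sat1, for which replicate 12 was also the lowest of its own group. Both libraries had the lowest share of reads in their group that aligned to several places (3.96% and 3.76%) and that were ambiguous between genes (1.57% and 1.67%). The part of these library measures in the levels was not tested.

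Levels can be compared between genes only per length, here as CPM per kilobase of exonic length. The order of the genes may depend on this choice of length. Smox has 3894 exonic bases but a longest transcript of 2299, against 3542 and 3204 for Amd1. Levels per kilobase of the longest transcript were not compared. In scrambled control cells Oaz1 stood highest at 397 ± 81.2 CPM per kilobase (SD, n = 3), followed by Odc1 at 132 ± 8.49 and Srm at 87.3 ± 14.4. Sat1 at 36.03 ± 9.29 and Oaz2 at 34.0 ± 2.99 CPM per kilobase differed by less than the spread of Sat1 between libraries. Amd1 came next at 23.1 ± 2.62 CPM per kilobase, a value lowered by the uncounted shared reads, as that of Odc1 may be. Azin1 followed at 18.7 ± 1.47, Smox at 9.15 ± 0.468 and Sms at 5.81 ± 1.43. Azin2 was lowest at 0.681 ± 0.0567 CPM per kilobase in scrambled control and also in IFNγR1KO cells, at 1.69 ± 0.417. The other inhibitor, Azin1, stood at 13.8 ± 2.23 CPM per kilobase in IFNγR1KO cells. In IFNγR1KO cells Amd1, at 10.6 ± 0.631 CPM per kilobase, lay below Azin1. On exonic length, the only length compared, Amd1 was level with Smox at 10.8 ± 1.14. Sat1, at 47.3 ± 13.02 CPM per kilobase, was above Oaz2 there, at 28.1 ± 2.64.

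The ratio of 2 genes within a library does not depend on how libraries are scaled, and 4 such ratios were compared. The ratio of Odc1 to Amd1, in counts per kilobase, was 6.05, 6.25 and 5.00 in scrambled control and 13.2, 15.5 and 11.2 in IFNγR1KO libraries. All IFNγR1KO libraries lay above all scrambled control libraries. On the log2 scale the mean ratio was 2.52 ± 0.17 in scrambled control and 3.72 ± 0.23 in IFNγR1KO cells (SD, n = 3 each), a difference of 1.20 (two-sided exact permutation p = 0.1, the smallest possible, and 0.4 after Benjamini-Hochberg adjustment over the 4 ratios). This ratio is set by the difference in Amd1 already described and carries no separate evidence of it. Its size in each library may also depend on the uncounted shared reads of both genes.

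The ratio of Srm to Sms, the enzymes of successive aminopropyl transfers, had a log2 mean of 3.93 ± 0.55 in scrambled control and 4.09 ± 0.54 in IFNγR1KO cells (SD, two-sided exact permutation test, p = 0.8). The ratio of Azin1 to Oaz1, an inhibitor to its antizyme, had a log2 mean of -4.39 ± 0.39 in scrambled control and -4.53 ± 0.13 in IFNγR1KO cells (SD, exact permutation test, p = 0.8). The ratio of Oaz2 to Oaz1 had a log2 mean of -3.53 ± 0.21 in scrambled control and -3.48 ± 0.20 in IFNγR1KO cells (SD, exact permutation test, p = 0.6). In these 3 ratios the groups overlapped and the difference was smaller than the SD of at least 1 group. Each changed sign when a library was left out: Srm to Sms from 0.17 to -0.15 without scrambled control replicate 1 and -0.14 without IFNγR1KO replicate 12, Azin1 to Oaz1 from -0.14 to 0.08 without scrambled control replicate 3, and Oaz2 to Oaz1 from 0.04 to -0.04 without scrambled control replicate 1 and -0.07 without IFNγR1KO replicate 12.

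**Figure D3:**
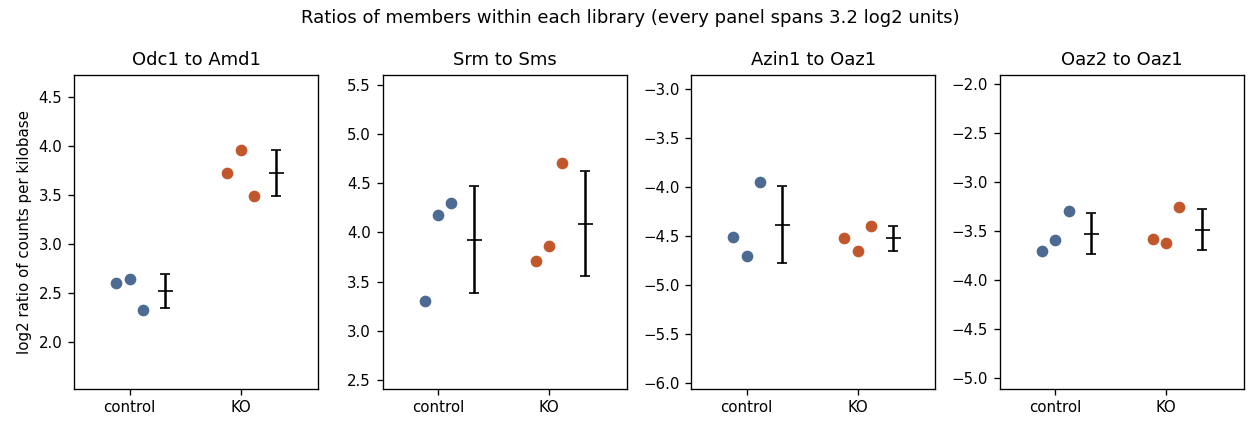
Log2 ratio of counts per kilobase of 2 polyamine genes within each library (y axis), in scrambled control (blue) and IFNγR1KO (orange), with the mean and SD of each group in black; every panel has the same span. Only the ratio of Odc1 to Amd1 is separated, with means of 2.52 and 3.72, while the groups of the other 3 ratios overlap.

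The genes around the pathway were read from 6 lists, chosen by function but with earlier results of these data known. Their share of calls is therefore not independent of the data. The lists held 48 genes, of which 31 passed the filter on low counts. Of these, 8 had an adjusted p under 0.05 (25.8%, against 15.3% of all tested genes), 5 of them higher and 3 lower in IFNγR1KO cells, and their median log2 fold change was -0.02. Polyamine levels themselves were not analysed here.

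Ornithine and arginine supply held 5 tested genes of 11, and 1 of them, Aldh18a1, rose. Aldh18a1 encodes the enzyme that makes the precursor of proline and ornithine from glutamate. It had 80.4, 90.8 and 105 CPM in scrambled control and 227, 216 and 289 CPM in IFNγR1KO libraries, with no overlap. Its log2 fold change was 1.40 (SE 0.16, adjusted p = 0.000166, edgeR quasi-likelihood test with Benjamini-Hochberg adjustment). Oat, ornithine aminotransferase, had a log2 fold change of -0.18 and Slc25a15, a mitochondrial ornithine carrier, one of -0.14, and neither passed. The arginase gene Arg1 was at 0 counts in every library. The other arginase gene, Arg2, was below the filter, with 11, 11 and 7 counts in scrambled control and 2, 9 and 3 in IFNγR1KO libraries.

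AdoMet supply held 7 tested genes of 9, of which 0 had an adjusted p under 0.05 in edgeR, 1 an unadjusted p under 0.05 and 1 a call by DESeq2. Mat2a, the AdoMet synthetase of most tissues outside the liver, had a log2 fold change of -0.36 (adjusted p = 0.185 by edgeR). Ahcy, which removes S-adenosylhomocysteine, had a log2 fold change of -0.43 (adjusted p = 0.053 by edgeR and 0.0218 by DESeq2's Wald test).

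Methylthioadenosine, the by-product of both aminopropyl transfers, is salvaged to methionine. All 6 genes of this list were tested, and 1 fell and 2 rose by edgeR's adjusted p. By sign alone 3 were higher and 3 lower, 4 had an unadjusted p under 0.05, and 2 a call by DESeq2. Mtap, the phosphorylase of the first salvage step, had 307, 305 and 290 CPM in scrambled control and 162, 169 and 152 CPM in IFNγR1KO libraries. The groups were far apart relative to their spread, and Mtap fell by 0.90 on the log2 scale (SE 0.13, adjusted p = 0.000801 by edgeR). Got1, an aspartate aminotransferase listed here for the transamination that ends the salvage, rose from 162 ± 7.59 to 261 ± 14.3 CPM (SD, n = 3), a log2 fold change of 0.69 (adjusted p = 0.00401 by edgeR). Mri1, the isomerase after Mtap, had a log2 fold change of 0.47 (adjusted p = 0.0435 by edgeR). This call was lost in 4 of the 6 fits that left out a library, those without scrambled control replicate 1 (0.39, adjusted p = 0.139) or 3 (0.43, adjusted p = 0.0984) and without IFNγR1KO replicate 10 (0.48, adjusted p = 0.116) or 11 (0.47, adjusted p = 0.141). Mri1 also missed the threshold with DESeq2 (adjusted p = 0.0538) and in edgeR without a filter on low counts (adjusted p = 0.0728). Enoph1, another gene of this list, did not pass, with a log2 fold change of -0.41 (adjusted p = 0.0952 by edgeR). Its groups did not overlap.

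In hypusination, the use of spermidine to modify the translation factor eIF5A, all 4 genes were tested and 1 fell. Eif5a2, the second gene for the factor, had 17.9, 16.3 and 19.5 CPM in scrambled control and 7.81, 8.13 and 9.42 CPM in IFNγR1KO libraries. The groups did not overlap, and Eif5a2 fell by 1.08 on the log2 scale (SE 0.17, adjusted p = 0.00158 by edgeR). Eif5a, the main gene, had a log2 fold change of -0.26 (adjusted p = 0.297), and the 2 modifying enzymes Dhps and Dohh had log2 fold changes of 0.35 and 0.05 with adjusted p of 0.192 and 0.899 (edgeR). In GENCODE M21, Gm48551 on the same strand covers 47.5% of the exonic bases of Dohh. Reads there may have been ambiguous between the 2 genes and left uncounted. Wdr83 on the other strand covers 5.51% of the exonic bases of Dhps.

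Polyamine transport held 6 tested genes of 12, of which 2 rose and 1 fell by edgeR's adjusted p. By sign alone 2 were higher and 4 lower, 5 had an unadjusted p under 0.05, and 4 a call by DESeq2. Slc3a2, the heavy chain of several amino acid transporters, which has been linked to polyamine export, had 254, 285 and 245 CPM in scrambled control and 739, 699 and 699 CPM in IFNγR1KO libraries. Every IFNγR1KO library was far above the highest scrambled control library, and the log2 fold change was 1.45 (SE 0.14, adjusted p = 4.9e-05 by edgeR). Slc7a1, a carrier of arginine, ornithine and other cationic amino acids, had a log2 fold change of 0.81 (SE 0.17, adjusted p = 0.0076 by edgeR), which was 0.72 with an adjusted p of 0.0583 without scrambled control replicate 2. Atp13a3, a P5B-type ATPase that moves polyamines, had a log2 fold change of -0.53 (adjusted p = 0.0481 by edgeR). It passed in 1 of the 6 fits that left out a library, the one without IFNγR1KO replicate 12, with adjusted p from 0.0697 to 0.197 in the other fits, and it missed the threshold with total counts in place of TMM factors (adjusted p = 0.107 by edgeR). Slc18b1 had a log2 fold change of -0.56 (adjusted p = 0.0575 by edgeR) and Gpc1 one of -0.52 (adjusted p = 0.0611 by edgeR). Neither passed, and Atp13a2 at -0.22 (adjusted p = 0.439 by edgeR) did not either. The groups did not overlap for Slc18b1 and Gpc1, and DESeq2 called Gpc1. Ankmy1 on the other strand covers 18.9% of the exonic bases of Gpc1. Slc3a2 and Slc7a1, the 2 that rose, are known first as transporters of amino acids.

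Of the other polyamine enzymes and antizymes, 3 of 6 were tested, of which 0 had an adjusted p under 0.05 in edgeR, 1 an unadjusted p under 0.05 and 0 a call by DESeq2. Paox, the oxidase of acetylated polyamines, had 6.08, 7.66 and 8.50 CPM in scrambled control and 14.1, 9.62 and 11.5 CPM in IFNγR1KO libraries. The groups did not overlap, and the log2 fold change was 0.66 (SE 0.21, adjusted p = 0.0535 by edgeR and 0.0903 by DESeq2). Sat2, a relative of Sat1, had a log2 fold change of 0.58 (SE 0.32) and the antizyme gene Oaz3 one of 0.05 (SE 0.14). Tdrkh on the other strand covers 52.1% of the exonic bases of Oaz3, so reads of Oaz3 and Tdrkh cannot be told apart if strand was not used.

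**Figure D4:**
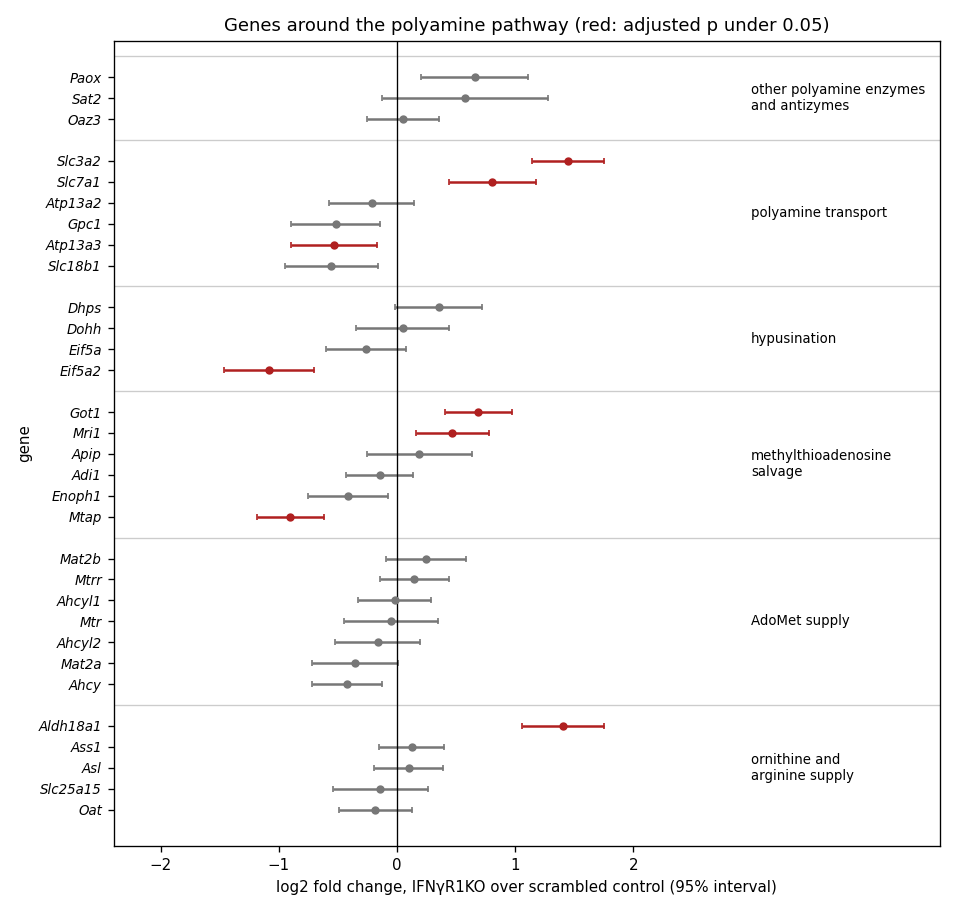
Log2 fold change (x axis, IFNγR1KO over scrambled control, edgeR) with 95% intervals for the 31 tested genes of the 6 pathway lists (y axis, grouped by list), with red for an adjusted p under 0.05. The 8 red genes are spread over 4 lists and both directions, from Eif5a2 at -1.08 to Slc3a2 at 1.45.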

How the data were processed

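RNA of 3 scrambled control and 3 IFNγR1KO cultures was poly(A)-selected and sequenced in pairs. The authors used STAR for alignment to GRCm38 and htseq-count for counting, and the values deposited are raw counts per gene that were not normalized. The submitters' processing notes name STAR 2.7.5a, HTSeq 0.11.2 and DESeq2 1.34.0. The annotation release and strand setting are not given in the sources used here. Entries that name no gene, left out of library sizes, held 46.9% to 47.7% (no feature), 1.57% to 1.85% (ambiguous) and 3.76% to 4.61% (not unique) of each library.

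Symbols, positions and exonic lengths came from GENCODE M21, which holds 55154 of the 55335 identifiers. In R 4.3.3, edgeR 4.0.16 was run with filterByExpr (minimum count 10, minimum total 15), TMM factors and its quasi-likelihood test, and p-values were adjusted by Benjamini-Hochberg over all 13642 genes kept. DESeq2 1.42.0 was an alternative, with limma 3.58.1 as a dependency of edgeR. Other alternatives changed the normalization, the filter, the threshold and the counts of gene copies, or left out each library. The transcript length was changed only for the ratios within libraries. It cancels between the groups there, so it could not alter their differences. Ratios within libraries were compared by two-sided exact permutation tests. The scripts were tested on simulated data.

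The genes named were all 10 polyamine genes, Ifngr1, Amd2 and pseudogene copies, and in each list up to 3 genes a direction, those of smallest adjusted p under 0.05. Values of other list genes were chosen for display after they were seen. Among them were Oat, Slc25a15, Arg1, Arg2, Mat2a, Ahcy, Enoph1, Eif5a, Dhps, Dohh, Slc18b1, Gpc1, Atp13a2, Paox, Sat2 and Oaz3. The members and lists were chosen with earlier results of these data known. Counting error alone limits low genes: 3 counts, taken as the floor per library, are a small share of the 25 or more counts of Azin2.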

Additional observations from a re-analysis of the deposited data

How the results depend on the processing

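The number of polyamine genes called was 2 with the study's DEG threshold set on edgeR values and with an adjusted p under 0.01. It was also 2 with RLE size factors, with total counts and with a minimum of 1 CPM in 3 libraries. It was 3 with DESeq2, 3 without a filter on low counts, and 2 to 3 when a library was left out. None of the 10 log2 fold changes changed sign. The number of genes called in the pathway lists was 8 to 11 under the other settings and 6 to 13 when a library was left out. It reached 13 (8 higher, 5 lower, with all 8 of the full comparison among them) without IFNγR1KO replicate 12, when calls over all genes went from 2093 to 2824; leaving out any other library lowered them, to between 1028 and 1782. Within-library ratios, as log2 differences, ranged over these leave-one-out fits from 1.09 to 1.32 for Odc1 to Amd1, -0.15 to 0.36 for Srm to Sms, -0.30 to 0.0809 for Azin1 to Oaz1 and -0.0747 to 0.16 for Oaz2 to Oaz1. The cause of these shifts was not tested. No paired analysis was possible because the replicate numbers of the groups, 1 to 3 and 10 to 12, share none. At 3 libraries a group, exact tests cannot go below p = 0.1, and genes with as few counts as Azin2 carry wide intervals.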
